A study of Mus musculus with 17 samples.

Results

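Acyl-CoA thioesterases split a fatty acyl-CoA, the activated form of a fatty acid, into free coenzyme A and the free acid. They work against the acyl-CoA synthetases, and together the pair of reactions sets how much acyl-CoA a compartment holds. The mouse has a tandem group of closely related copies on chromosome 12, whose products are sent to different compartments: Acot1 to the cytosol, Acot2 to the mitochondrion, and Acot3 and Acot4 to the peroxisome. Acot12, on chromosome 13, belongs to another structural family and hydrolyses acetyl-CoA in the cytosol. In the liver the chromosome 12 copies are known as genes that rise with fasting and with agonists of PPAR-alpha, the nuclear receptor that senses fatty acids.

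The genes described here are Acot1, Acot2, Acot3, Acot4 and Acot12. They were taken by symbol, and are 5 of the 12334 genes in the RNA table. The H3K9ac table lists 7 of its 57499 regions under these names: 1 each for Acot2, Acot3 and Acot4, and a pair each for Acot1 and Acot12. Acot1 to Acot4 are close copies of each other. How the read counting shared reads between such copies is not given in the sources used here, so the level of any single copy on chromosome 12 is uncertain to that extent.

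Livers came from C57BL/6 mice, an inbred strain, kept for 10 weeks on a high-fat diet (HFD; 60% of calories from fat) or a control diet (CD; 18%). Messenger RNA was sequenced from 4 livers per diet, lettered A to D. Chromatin carrying histone H3 acetylated at lysine 9 (H3K9ac), a mark of active start sites, was sequenced from 3 livers per diet, with the letters A, C and D for CD and the letters A, B and D for HFD. Sex, age, hour of collection and feeding state are not among the labels used here. It is also not stated whether a letter marks the same animal in both assays. The p-values of the fits below set a change against the spread between these livers, estimated for each gene or region together with all others. For H3K9ac that estimate leaned mostly on all regions, so a region's own spread between 3 livers per diet counted little. The headings of the RNA columns carry numbers of unstated meaning that differ between the diets, and anything these mark cannot be told apart from diet.

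Total counts were 31802893 to 37596560 per RNA library and 9255635 to 12149497 per H3K9ac library. Of 12 hepatocyte markers all were measured, and their summed level was 123808 to 139483 CPM, the count scaled to the library, under CD and 139084 to 162965 CPM under HFD. Alb was the largest part of that sum, at means of 70081 CPM under CD and 85339 CPM under HFD. By the test named next, 1 of the 12 rose and 11, Alb among them, did not pass. In the RNA, 897 genes, 7.27% of those tested, had an adjusted p under 0.05 in edgeR's quasi-likelihood test. Of these, 448 (3.63%) were higher and 449 (3.64%) lower under HFD. The median log2 change of all genes was 0.01.

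In the RNA the 5 genes did not move as a block. Acot1 fell under HFD, and it alone of the 5 passed the threshold, so that 1 of 5 fell and 0 rose. The other 4 had higher means under HFD, by 1.10-fold for Acot2 to 4.32-fold for Acot3, without passing. The median log2 change of the 5 was 0.38. Before adjustment 4 of the 5 had p under 0.05, all but Acot2, against 20.4% of all genes. DESeq2 called 3 of the 5 (Acot1, Acot4 and Acot12), against 11.4% of all genes. The false discovery rate in the authors' deposited table was under 0.05 for 4, namely Acot1, Acot3, Acot4 and Acot12, against 10.2% of all listed genes by that measure. CD and HFD values did not overlap for 2 of the 5, Acot1 and Acot12, against 14.3% of all genes. In bulk tissue, fewer cells of a type and less RNA per cell cannot be told apart.

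**Figure D1:**
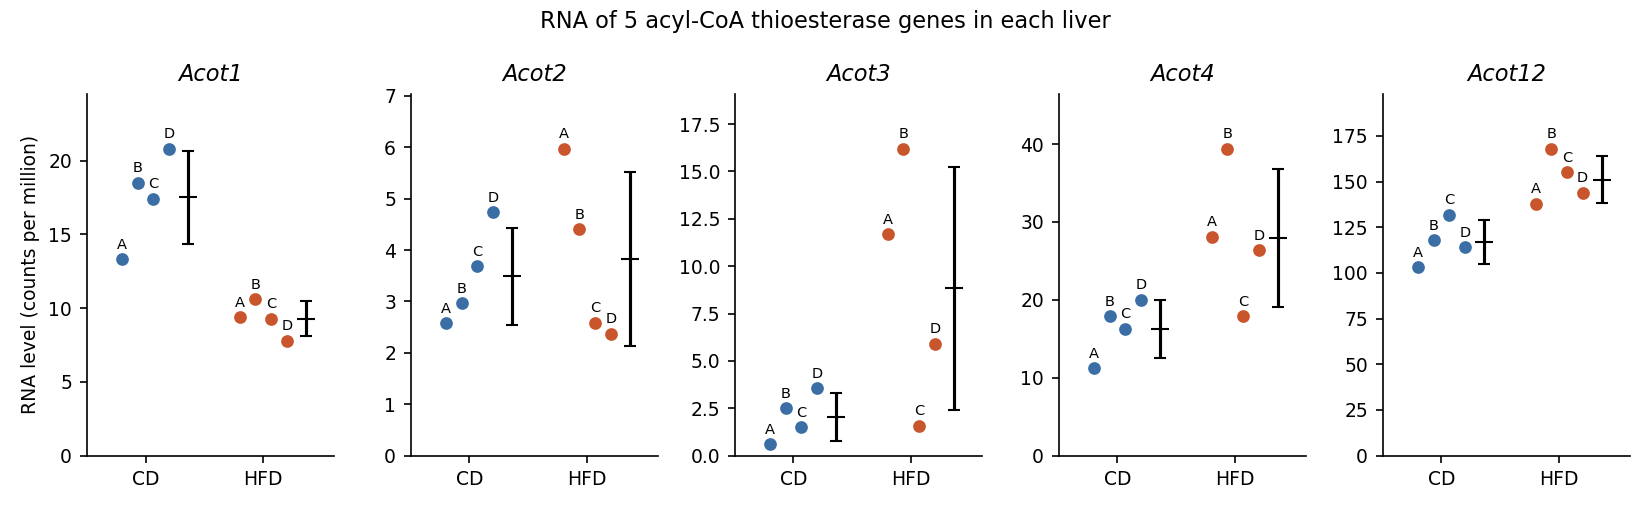
RNA level in CPM (vertical axes, linear from 0) of the 5 genes in each CD (blue) and HFD (orange) liver, with its letter; bars give mean ± SD of 4 livers. Acot1 lay at 7.79 to 10.6 CPM under HFD, below every CD liver, and Acot12 above every CD liver, while Acot2, Acot3 and Acot4 overlapped between the diets.

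Per length of transcript, Acot12 was the most abundant of the 5 in CD livers, at 38.2 ± 3.94 FPKM (SD, n = 4). Acot1 followed at 11.3 ± 2.01 FPKM and Acot4 at 7.05 ± 1.6 FPKM, and the lowest were Acot2 at 1.61 ± 0.431 FPKM and Acot3 at 0.809 ± 0.492 FPKM. The CD ranges of Acot1 (8.58 to 13.4 FPKM) and Acot4 (4.86 to 8.61 FPKM) overlapped, as did those of Acot2 and Acot3. Within each of the 4 CD livers, however, Acot1 stood above Acot4 (8.58 against 4.86 FPKM in A, 11.9 against 7.72 in B, 11.2 against 7.02 in C, 13.4 against 8.61 in D). Acot2 likewise stood above Acot3 within each CD liver, most narrowly in B, at 1.37 against 0.989 FPKM. Under HFD the order of the middle genes was another. Acot4, at 12 ± 3.81 FPKM, stood above Acot1, at 5.99 ± 0.750 FPKM, and the lowest Acot4 value, 7.72 FPKM, was above the highest Acot1 value, 6.87 FPKM. The means of the lowest genes changed order too, with Acot3 at 3.43 ± 2.47 FPKM and Acot2 at 1.77 ± 0.77 FPKM. In HFD C, however, Acot3 was below Acot2, at 0.634 against 1.21 FPKM.

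Acot1, the cytosolic long-chain enzyme, spans chr12:84009502-84017669 on the plus strand (mm10). Its level was 13.3, 18.5, 17.4 and 20.8 CPM in CD livers A to D, and 9.39, 10.6, 9.29 and 7.79 CPM in HFD livers A to D. All 4 HFD livers lay below all 4 CD livers. The means were 17.5 ± 3.13 and 9.28 ± 1.17 CPM (SD, n = 4 each), a log2 change of -0.92 (SE 0.15, 95% interval -1.25 to -0.58, adjusted p = 0.00506), or 1.89-fold higher under CD. The call held without any single liver, with adjusted p between 0.00325 and 0.02. The 250 bases before its listed start are given first because Acot1 alone fell, and those of Acot4 and Acot3 below them because these 2 genes had the highest ratios of HFD to CD means and lie downstream of it. All 3 are from RefSeq (GRCm38.p6, the build that mm10 names), 5′ to 3′ on the plus strand, at chr12:84009252-84009501, chr12:84038129-84038378 and chr12:84051901-84052150.
Acot1: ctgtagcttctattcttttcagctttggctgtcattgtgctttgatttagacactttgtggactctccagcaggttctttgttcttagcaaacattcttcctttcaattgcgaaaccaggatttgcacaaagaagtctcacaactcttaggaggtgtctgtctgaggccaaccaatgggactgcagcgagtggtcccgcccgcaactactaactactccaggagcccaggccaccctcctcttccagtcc
Acot4: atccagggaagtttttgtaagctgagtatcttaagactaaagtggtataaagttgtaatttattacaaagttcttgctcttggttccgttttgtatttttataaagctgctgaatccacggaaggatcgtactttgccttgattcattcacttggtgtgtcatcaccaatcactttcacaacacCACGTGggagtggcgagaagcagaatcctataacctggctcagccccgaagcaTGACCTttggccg
Acot3: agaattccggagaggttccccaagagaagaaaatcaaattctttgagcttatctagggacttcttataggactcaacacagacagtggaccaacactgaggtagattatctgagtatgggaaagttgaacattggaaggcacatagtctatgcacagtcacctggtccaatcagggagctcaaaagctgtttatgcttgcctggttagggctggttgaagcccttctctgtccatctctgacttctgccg
Capitals mark matches, on either strand, to AGGTCA, the half-site that nuclear receptors such as PPAR-alpha bind, and to CACGTG, the E-box bound by basic helix-loop-helix factors. CACGTG was added after the sequences had been seen. Acot4 held 1 of each, with the first base of the half-site at -13 and that of the E-box at -66 from the start. Neither was present in these windows of Acot1, Acot2 or Acot3, and Acot12 held 1 half-site, at -110. RefSeq holds 2 such windows for Acot3, and only the one at the listed start is printed and described here. Of 32851 RefSeq windows of the same length, 14% held the half-site and 6.02% the E-box. The full PPAR element DR1, a pair of AGGTCA half-sites with 1 base between them, was searched as an exact match only. It was in 0.0335% of all windows and in none of the 5. A match this rare would be missing from most sets of 5 windows, and inexact forms of the element were not searched. These are matches of letters only. Base composition differed too: G and C made up 68.4% of the Acot12 window, which held 18 CG steps, and 42.4% (Acot4) to 50.4% (Acot2) of the others, which held 2 to 7, against medians of 52.4% and 6 over all windows.

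Acot2, the mitochondrial copy (chr12:83987861-83993875, plus strand), was low in both diets. It stood at 2.58, 2.96, 3.68 and 4.73 CPM in CD livers A to D and at 5.97, 4.4, 2.59 and 2.37 CPM in HFD livers A to D. The HFD values straddled the CD values, with A and B high and C and D low. The log2 change was 0.14 (SE 0.31, 95% interval -0.54 to 0.82, adjusted p = 0.87), an interval that still holds changes of either direction.

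Acot3, a peroxisomal long-chain enzyme (chr12:84052151-84059564, plus strand), varied most of the 5. Its level was 0.59, 2.50, 1.51 and 3.55 CPM in CD livers A to D, from 19, 94, 51 and 117 counts. In HFD livers A to D it was 11.7, 16.2, 1.58 and 5.90 CPM, from 407, 537, 52 and 194 counts. HFD livers A, B and D lay above every CD liver, whereas HFD C lay within the CD range. The highest HFD liver was 10.2 times the lowest, and the means were 2.04 ± 1.27 and 8.84 ± 6.41 CPM. The log2 change was 2.11 (SE 0.64, 95% interval 0.68 to 3.54) and did not pass the threshold, at an adjusted p of 0.0813. Without HFD C it was 0.0178, and it was above 0.05 without each of the other 7 livers in turn, up to 0.249 without HFD B.

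Acot4, the peroxisomal copy that acts on succinyl-CoA and other dicarboxylic acyl-CoAs (chr12:84038379-84044723, plus strand), had a like pattern at a higher level. Its values were 11.2, 17.9, 16.3 and 20 CPM in CD livers A to D and 28.1, 39.4, 17.9 and 26.4 CPM in HFD livers A to D. Again only HFD C fell inside the CD range. The means were 16.3 ± 3.72 and 27.9 ± 8.86 CPM, and the log2 change of 0.77 (SE 0.23, 95% interval 0.25 to 1.29) had an adjusted p of 0.0799. It was 0.0258 without HFD C, 0.0185 in DESeq2, and up to 0.247 without HFD B.

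Acot12, the acetyl-CoA hydrolase (chr13:91741521-91786148, plus strand), varied least between livers. It stood at 103, 118, 132 and 114 CPM in CD livers A to D and at 138, 168, 155 and 144 CPM in HFD livers A to D. Every HFD liver was above every CD liver, although the highest CD value and the lowest HFD value were close. The means were 117 ± 12 and 151 ± 12.9 CPM. The log2 change of 0.38 (SE 0.11, 95% interval 0.14 to 0.61) had an adjusted p of 0.0591, with 0.0407 without HFD A, 0.0124 in DESeq2, and up to 0.217 without HFD B. The gene 4833422C13Rik, on the opposite strand, overlaps the start of Acot12. Use of strand in the counting is not given in the sources used here, so reads of the overlap cannot be assigned, but 4833422C13Rik itself was at 0.915 CPM under CD and 1.09 CPM under HFD.

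The same livers were high or low across several of the copies. Under CD, Acot1, Acot3 and Acot4 were all highest in D, then B, C and A. Under HFD, Acot3 and Acot4 were both highest in B, then A, D and C, while Acot1 ran B, A, C, D and Acot2 ran A, B, C, D. Acot2 ran D, C, B, A under CD. Markers of other liver cells were lower in HFD livers A and B than in C and D. The summed level of 8 endothelial markers was 109.5, 129, 247 and 232 CPM in HFD livers A to D (133 to 189.6 CPM under CD), and that of 8 stellate cell markers was 193, 202, 323 and 404 CPM (267 to 317 CPM under CD). The sum of 8 Kupffer cell markers was 111, 179, 210.0 and 315 CPM (146 to 209 CPM under CD). None of these 24 markers passed the test between diets. Their part in the spread of Acot2, Acot3 and Acot4 between HFD livers was not tested.

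Summed over the 4 copies on chromosome 12, the RNA was 27.7, 41.8, 38.9 and 49.0 CPM in CD livers A to D and 55.2, 70.7, 31.4 and 42.4 CPM in HFD livers A to D. The sum overlapped between diets, and its log2 change was 0.34 (SE 0.24, 95% interval -0.19 to 0.87, adjusted p = 0.497). Acot1 supplied 42.4% to 48.0% of the counts in the 4 CD livers and 15.1% to 29.6% in the 4 HFD livers. Acot4 supplied 40.5% to 42.8% under CD and 50.9% to 62.2% under HFD. For these copies the ranges did not overlap, whereas those of Acot3 (2.13% to 7.24%, and 5.05% to 22.9%) and Acot2 (7.07% to 9.65%, and 5.59% to 10.8%) did. Shares within a liver have a fixed sum, so a lower share of Acot1 by itself raises those of other copies. The sum does not depend on which of the 4 copies received a read, whereas reads placed in the wrong copy would move the shares. Whether shared reads were dropped, counted in several copies or placed outside these 4 is not known, and each could change the sum as well.

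**Figure D2:**
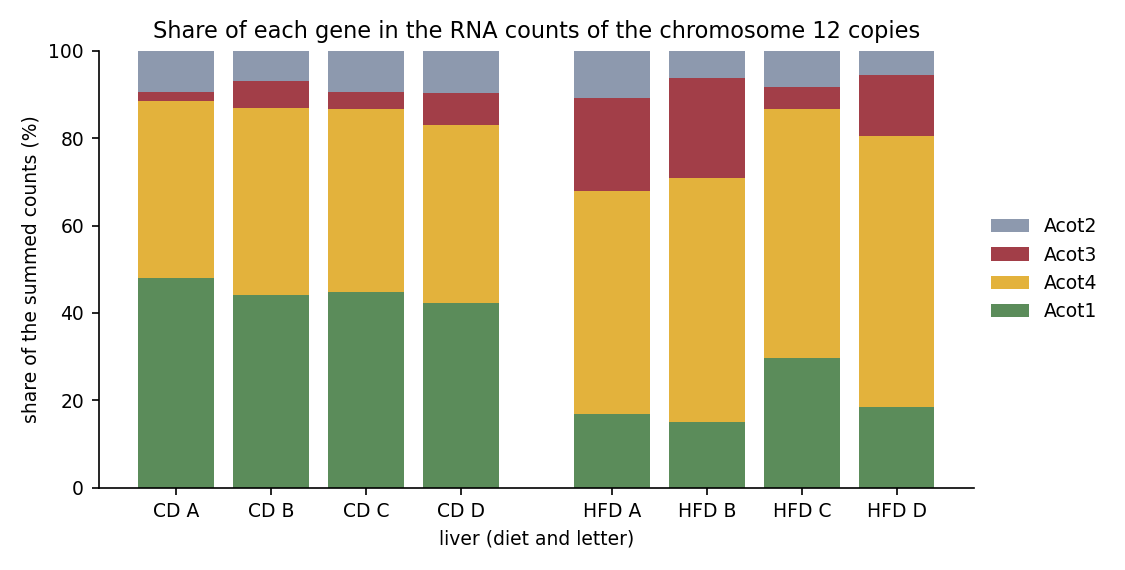
Share (vertical axis, %) of Acot1, Acot4, Acot3 and Acot2 in their summed RNA counts, 1 bar per liver. The Acot1 share was 42.4% or more in every CD liver and 29.6% or less in every HFD liver.

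Ratios within a liver remove any factor common to the genes of that library. The log2 ratio of Acot1 to Acot4 was 0.24, 0.05, 0.10 and 0.06 in CD livers A to D, and -1.57, -1.88, -0.94 and -1.75 in HFD livers A to D. The CD livers therefore held nearly equal CPM of both, within an SD of 0.09 on the log2 scale, and all HFD livers held less Acot1 than Acot4, HFD C included. The difference between diets was -1.65. Acot1 was likewise lower against Acot2 (difference -0.97), Acot3 (-2.81) and Acot12 (-1.28), without overlap of the diets in any of the 4 pairs. All 4 pairs use the same Acot1 values, so they are not separate results. Each of these 4 gave p = 0.0286 in a two-sided exact permutation test, the smallest that 70 assignments of 4 against 4 livers allow. Adjusted over the 10 pairs of the 5 genes that p became 0.0714, so 0 of 10 pairs passed 0.05, and none could have unless at least 6 pairs had reached the smallest p together. The 6 pairs without Acot1 overlapped between diets, with exact p of 0.0571 to 0.571. Of these, Acot3 to Acot4 differed by 1.16 and Acot4 to Acot12 by 0.37.

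**Figure D3:**
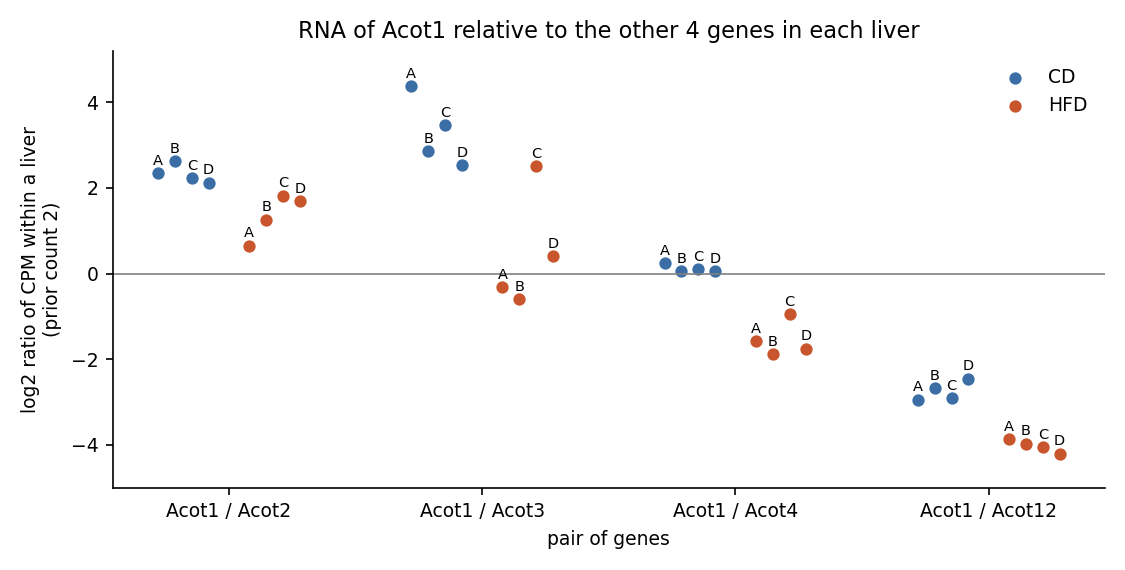
Log2 ratio of the CPM of Acot1 to that of each of the other 4 genes (vertical axis, with a prior count of 2) in each CD (blue) and HFD (orange) liver, with its letter. In all 4 pairs every HFD liver lies below every CD liver, and for Acot1 to Acot4 the CD livers span only 0.05 to 0.24.

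Of all 57499 H3K9ac regions, 1372 (2.39%) passed the threshold, 480 (0.835%) higher and 892 (1.55%) lower under HFD. Of the 7 regions of these genes, 2 passed and both were higher: those of Acot4 and Acot3. The same regions had a false discovery rate under 0.05 in the authors' deposited table (6.71e-06 and 0.0322), against 2.4% of all regions by that measure. CD and HFD values did not overlap in 3 of the 7, against 15.4% of all regions. The median log2 change of the 7 was 0.00, as over all regions (-0.00).

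At Acot4, the region chr12:84038228-84039164 ran from -151 to 785 bases from the start, with 589 of its 937 bases over exon 1. It holds both marked motifs of the Acot4 sequence above. Its H3K9ac level was 39.1, 47.7 and 50 CPM in CD livers A, C and D and 66.9, 76.6 and 60.0 CPM in HFD livers A, B and D. All HFD livers were above all CD livers. The means were 45.6 ± 5.73 and 67.8 ± 8.37 CPM (SD, n = 3 each), and the log2 change was 0.58 (SE 0.10, 95% interval 0.38 to 0.77, adjusted p = 3.75e-05). The call held without any single liver, the largest adjusted p being 0.0129, without HFD B.

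At Acot3, the region chr12:84053329-84054366 lay inside the gene, 1178 to 2215 bases past the listed start, with 613 of its 1038 bases over listed exon 2. None of the 250 bases printed for Acot3 were in a listed region. Its level was 11.3, 11 and 12.9 CPM in CD livers A, C and D and 25.4, 41.7 and 17.0 CPM in HFD livers A, B and D. The CD livers were close together, and the HFD livers were all higher and spread over 2.45-fold. The log2 change was 1.27 (SE 0.17, 95% interval 0.94 to 1.6, adjusted p = 1.37e-07), from means of 11.7 ± 0.997 and 28.0 ± 12.6 CPM. The largest adjusted p with a liver left out was 0.00464, without HFD B. The call was far weaker in DESeq2, with an adjusted p of 0.0351. In edgeR with only regions at or above the median level it was 0.00661. In both this region and that of Acot4 the HFD livers ranked B, A, D, as these letters did in the RNA of Acot3 and Acot4. The order B, A, D was also that of the intronic Acot1 region and the nearer Acot12 region, neither of which passed. Under CD the Acot3 region ran D, A, C, whereas its RNA ran D, C, A for those letters. HFD C, whose RNA of both genes lay within the CD range, has no H3K9ac library among those analysed here.

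**Figure D4:**
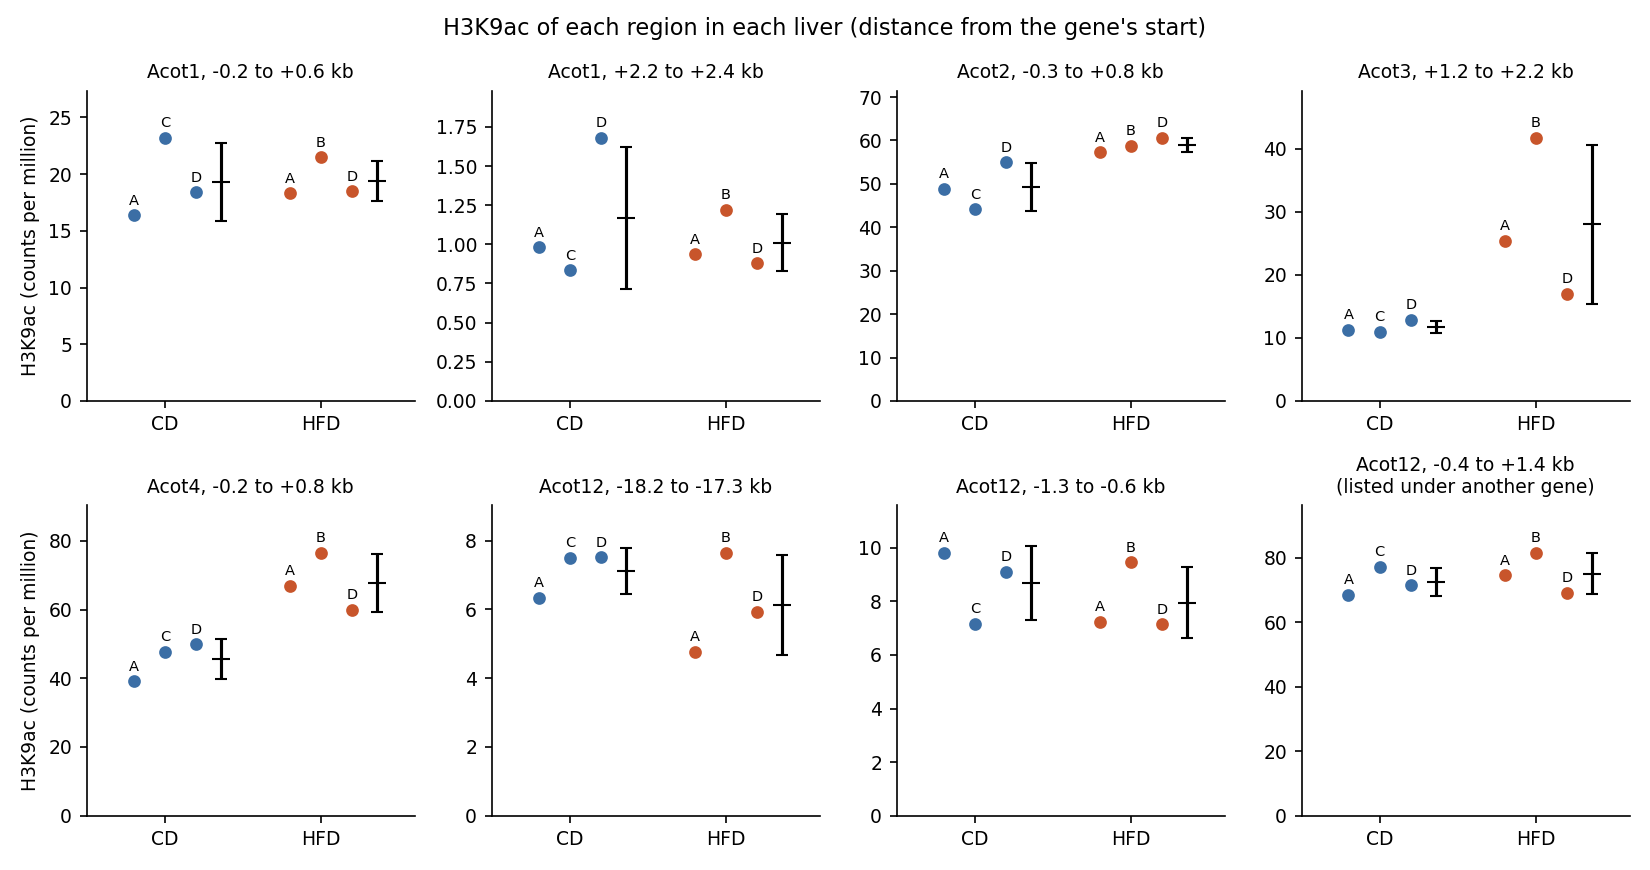
H3K9ac in CPM (vertical axes, linear from 0) of the 7 regions listed under the genes, and of the region over the start of Acot12 listed under another gene, in CD (blue) and HFD (orange) livers; bars give mean ± SD of 3 livers. The Acot3 and Acot4 regions were higher in every HFD liver, at 17.0 to 41.7 and 60.0 to 76.6 CPM.

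At Acot1, whose RNA fell, the region over the start did not pass. It spanned chr12:84009324-84010136, from -178 to 634 bases from the start, with 465 of 813 bases over exon 1. Its level was 16.4, 23.2 and 18.4 CPM in CD livers A, C and D and 18.3, 21.5 and 18.5 CPM in HFD livers A, B and D, so the HFD values lay inside the CD range. The log2 change was 0.00 (SE 0.13, adjusted p = 0.996), with a 95% interval of -0.26 to 0.27. That interval and the interval of its RNA change, -1.25 to -0.58, did not overlap, but the RNA and H3K9ac changes were measured in separate fits and their difference was not tested. The other Acot1 region, chr12:84011661-84011911 in an intron, held 8 to 17 counts per library, and its log2 change of -0.18 had an interval of -1.10 to 0.75.

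At Acot2, the region over the start (chr12:83987610-83988656, with 621 of 1047 bases over exon 1) stood at 48.9, 44.1 and 55.0 CPM in CD livers A, C and D and at 57.3, 58.8 and 60.6 CPM in HFD livers A, B and D. The HFD livers were all above the CD livers, by little. The log2 change of 0.26 (SE 0.09, adjusted p = 0.161) did not pass. It passed without CD D, with an adjusted p of 0.0358, and its adjusted p was 0.613 without CD C. Under CD the RNA of Acot2 was the second lowest of the 5. Its H3K9ac under CD (49.3 ± 5.45 CPM) was nevertheless near that of Acot4 and above that of the start of Acot1 (19.3 ± 3.46 CPM). The regions of Acot2, Acot4 and Acot1 compared here have 1047, 937 and 813 bases.

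Neither region listed under Acot12 passed the test. The nearer, chr13:91740232-91740874, lay at -1289 to -647 bases from the start and had a log2 change of -0.12 (SE 0.18, adjusted p = 0.885). The farther, chr13:91723324-91724192, lay at -18197 to -17329 bases from it and had a log2 change of -0.22 (SE 0.20, adjusted p = 0.772). Both were low, with CD means of 8.70 ± 1.38 and 7.12 ± 0.676 CPM. The start of Acot12 itself lies in a region that the table lists under 4833422C13Rik, chr13:91741108-91742944, which is outside the choice by name. That region stood at 68.6, 77.2 and 71.4 CPM in CD livers A, C and D and at 74.6, 81.6 and 69.1 CPM in HFD livers A, B and D. The diets overlapped, with a log2 change of 0.05 (SE 0.09, 95% interval -0.12 to 0.22, adjusted p = 0.893).

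Along the chromosome 12 cluster the regions that passed were those of neighbouring copies, Acot4 and Acot3. The next copies downstream, Acot5 and Acot6, are not listed in the RNA table, which holds no gene with a mean count under 13.9. Each had a region near its start, with log2 changes of -0.09 (SE 0.23, adjusted p = 0.945) for Acot5 and -0.10 (SE 0.13, adjusted p = 0.867) for Acot6. Flanking the cluster, the regions at the starts of 2410016O06Rik and Dnal1 had log2 changes of -0.00 and 0.06. In the RNA these flanking genes had log2 changes of 0.24 (adjusted p = 0.538) and -0.26 (adjusted p = 0.595).

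**Figure D5:**
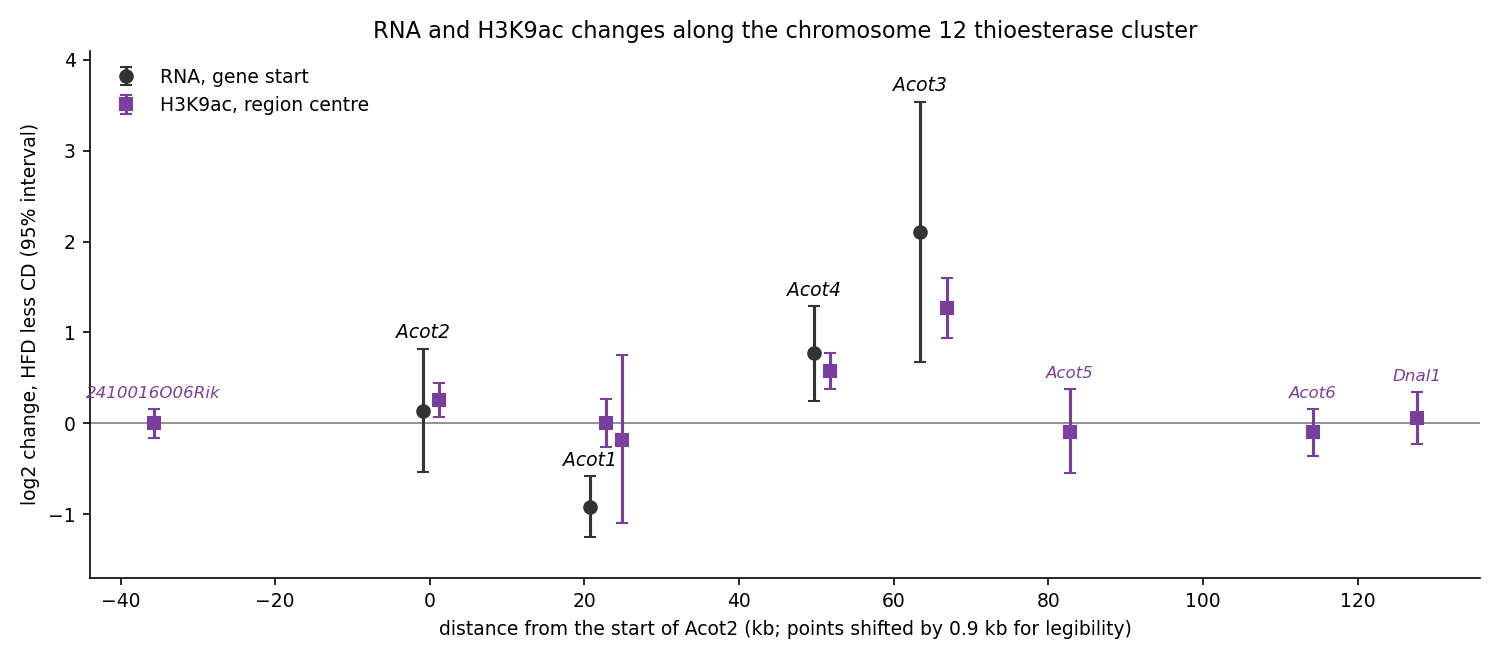
Log2 change (vertical axis, HFD less CD, with 95% interval) of RNA at gene starts (black circles) and of H3K9ac at region centres (purple squares) by distance from the start of Acot2 in kb. The RNA interval of Acot1 (-1.25 to -0.58) lies below 0 while its start region is at 0.00, and for Acot4 and Acot3 the changes of both RNA and H3K9ac are above 0.

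Among the other thioesterases and related acyltransferases, 9 of 13 were measured in the RNA. Of these 3 rose and 0 fell, against 3.63% and 3.64% of all genes, with a median log2 change of 0.19. Acot11, a long-chain thioesterase of another structural family, rose from 7.05 ± 1.42 to 16.1 ± 1.71 CPM (log2 change 1.19, adjusted p = 0.00127). Acnat2, an acyltransferase related to the chromosome 12 copies and to Baat, rose from 10.7 ± 3.8 to 34.6 ± 6.22 CPM (1.69, adjusted p = 0.00141). Them4 rose from 13.9 ± 1.96 to 23.5 ± 3.87 CPM (0.75, adjusted p = 0.0105). The 6 that did not pass were Acot7 (log2 change 0.19), Acot8 (-0.06), Acot9 (0.01), Acot13 (0.51), Acnat1 (0.05) and Baat (-0.04), the bile acid conjugating enzyme.

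The reverse reaction is made by the acyl-CoA synthetases, of which 16 of 18 were measured. None rose and 2 fell, against 3.63% and 3.64% of all genes, with a median log2 change of -0.10. Acsl1, the main long-chain synthetase of liver, fell from 1678 ± 58.3 to 1180.0 ± 113 CPM (log2 change -0.51, adjusted p = 0.0135). Acsm2, a medium-chain synthetase, fell from 3.48 ± 0.395 to 0.750 ± 0.401 CPM (-2.21, adjusted p = 0.00167), and Acsf2 had a change of -0.33 that did not pass (adjusted p = 0.0745). Acetyl-CoA is the substrate of Acot12. Of 11 measured genes listed for the handling of acetyl-CoA and acetate, carriers included, 0 rose and 1 fell, against 3.63% and 3.64% of all genes. The 1 that fell was Hmgcs1, of sterol synthesis, with a log2 change of -1.38 (adjusted p = 0.00237).

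The 30 genes taken as PPAR-alpha targets split as well: 5 rose, 2 fell and 23 did not pass, with a median log2 change of 0.16. Of all genes 3.63% rose and 3.64% fell. Ppara itself rose from 264 ± 37.4 to 523 ± 61.1 CPM (log2 change 0.99, adjusted p = 0.00116), and Cpt1a, which admits fatty acids to the mitochondrion, from 315 ± 31.0 to 582 ± 68.3 CPM (0.89, adjusted p = 0.00131). Pdk4, which restrains pyruvate dehydrogenase, fell from 29.3 ± 11.1 to 3.52 ± 0.377 CPM (-3.06, adjusted p = 0.000122). The summed level of the 30 was 14048 to 15702 CPM under CD and 19757, 17023, 14790.1 and 13480.2 CPM in HFD livers A to D.

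The genes whose RNA most resembled each member were found by Pearson correlation of log2 CPM over the 8 livers, among the 6165 genes whose mean level reached the median. These values describe 8 points that share the diet and library of each liver. For Acot1 they were Tecpr2 (r = 0.97), Ikbkg (0.96) and Lnx2 (0.96), each of which fell, with log2 changes of -0.66, -0.47 and -0.48. For Acot4 they were Phka2 (0.97), St3gal5 (0.97) and Foxo1 (0.94), with log2 changes of 0.26, 0.77 and 0.38 that did not pass. Acot3 was followed by Cyp2c38, Hjurp and N4bp2l1 (0.95 each), of which N4bp2l1 rose (log2 change 0.98, adjusted p = 0.0296). For Acot2 they were Exoc7 (0.96), Mgat4b (0.96) and Elmo3 (0.95), with log2 changes of -0.00 to 0.06. For Acot12, Tbc1d16 (0.99) and Sec22c (0.98) are given, which rose by 0.67 and 0.51 on the log2 scale.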

How the data were processed

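Per the file headers, the authors deposited 1 table per assay with unscaled read counts, per gene for RNA and for H3K9ac over 1 region set that all libraries share. Log2 values (log2 FPKM for RNA, log2 CPM for H3K9ac) and the p-value, false discovery rate and log2 fold change of HFD against CD stand beside the counts, as deposited by the authors. The submitters' processing notes name mm10 as the build. For the aligner, peak caller, read counter and use of strand, nothing is given in the sources used here. The RNA table listed 12334 genes, besides 4999 blank lines that were left out. The H3K9ac table had 57571 lines for 57499 regions, and repeated lines were counted once. 0 value columns were left unmatched to a labelled library. The input and ATAC-seq libraries (1 and 2, both CD) were not analysed here.

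Counts were scaled by TMM, passed through filterByExpr (0 genes and 0 regions removed) and fitted with glmQLFit and glmQLFTest of edgeR 4.0.16 in R 4.3.3, each assay in its own fit and diet its single term. Benjamini-Hochberg adjustment of the two-sided p-values ran over every gene or region tested, and 0.05 was the threshold. The summed copies replaced the 4 single copies in a fit of their own. CPM, SD, the SE and the 95% interval are from this fit or its scaled counts, and FPKM values are the deposited log2 values taken back to the linear scale. Ratios used log2 CPM with a prior count of 2 and exact permutation tests over livers. The fits were tested on simulated counts. A floor of 3 counts equalled 0.0798 to 0.0943 CPM (RNA) and 0.247 to 0.324 CPM (H3K9ac), and intervals cover no error of read placement between copies.

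Alternatives were library totals in place of TMM, DESeq2 1.42.0, no filter, features at or above the median level, the letter as a block, each liver left out, and for ratios the deposited log2 FPKM and a prior count of 0.5. The letters were not taken as pairs, because no label says that a letter joins animals across diets. In the RNA, deviations of same-letter livers from their group means correlated at 0.29, 0.06, 0.23 and -0.22, and those of different letters at -0.41 to 0.37. In the H3K9ac same letters gave 0.09 and 0.08, above the -0.12 to 0.05 of different letters. These values do not settle whether letters are pairs. No libraries were alike within sampling noise (lowest chi-square per degree of freedom 32 and 1.49). The members and lists were chosen with earlier results of these data known. Named were all members, all other measured thioesterases, from each other list the 3 genes with the smallest p or fewer, genes beside the cluster, and the 3 genes most correlated with each member, of which 1 is not reported here. Marker lists not described above were cholangiocyte (1 of 5 fell), lymphocyte (0 of 3 changed) and adipocyte markers (0 of 1); of the hepatocyte markers 1 of 12 rose. Promoter sequences matched all 5 members in RefSeq.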

Additional observations from a re-analysis of the deposited data

Results flagged for a closer look

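In 28 groups of 4 livers (14 thioesterases and relatives in each diet), the highest or lowest liver was set against the others by Dixon's test, which flags about 1 group in 20 by chance. It marked 2. Acot11 was at 13.6 CPM in HFD C, below the 16.7 to 17.2 CPM of the other HFD livers and above every CD liver. Acnat2 was at 16.4 CPM in CD B, above the 8.1 to 9.43 CPM of the other CD livers and below every HFD liver. No member had such a liver.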

How the results depend on the processing

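No called result changed direction. The number of RNA genes past the threshold, 897, was 1405 in DESeq2, 543 when the lower-expressed genes were left out at the median, and 478 to 1107 with a liver left out. The members' count, 1, was 3 in DESeq2, 0 after that step at the median, where Acot1 is not tested, and 1 to 3 with a liver left out. The number of H3K9ac regions, 1372, was 798 in DESeq2, 884 after the same step, and 563 to 1862 with a liver left out, while the count of member regions was 2 under each alternative but 1: without CD D it was 3, with that of Acot2 added. With the letter as a replicate block, 826 genes and 1277 regions passed, with 1 and 2 members among them. The log2 change of the Acot3 region was then 0.81 (adjusted p = 6.51e-05 in edgeR) and that of Acot1 RNA -0.90 (adjusted p = 0.0144). In the H3K9ac only the letters A and D occur in both diets. The block fit of the H3K9ac therefore took no difference between diets from CD C or from HFD B, the highest liver at the Acot3 region (41.7 CPM). The log2 change of the cluster sum was 0.12 to 0.51 with a liver left out and did not pass. The ratio of Acot1 to Acot4 differed by -1.85 to -1.53 with a liver left out. The exact test over so few livers can hardly pass after adjustment, so its p-values say nothing of stability. The cause of these differences was not tested, beyond the smaller number of features or livers. Depth was lowest at the intronic Acot1 region, with 8 to 17 counts per library, and in the RNA at Acot3 in CD A, with 19.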
